A study of Mus musculus with 6 samples.

Results

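Connexins are the proteins of gap junctions, channels that join the cytoplasm of neighbouring cells. The connexins of glia and neurons were followed here through the cell types of the mouse forebrain at postnatal day 16, an age of active myelination. The 8 genes were Gja1, Gjb6 and Gjb2 (Cx43, Cx30 and Cx26, known from astrocytes), Gjc3 and Gjb1 (Cx29 and Cx32, known from myelinating glia), Gjd2 (Cx36, the connexin of electrical synapses between neurons), and Gja4 and Gja5 (Cx37 and Cx40, known from arteries). They were chosen by gene symbol, and are 8 of 20 connexin genes and 32285 genes in all that the count table lists.

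The data were single-nucleus RNA-seq (droplet capture of nuclei on the 10x Chromium platform, in which each captured transcript is counted once by its unique molecular identifier, UMI). The mice, 3 WT and 3 Npc1-/-, were untreated, and their forebrains had been frozen before the nuclei were isolated. NPC1 exports cholesterol from lysosomes, and per the study's methods the mutants carry the Npc1 nih allele on an F1 hybrid background of BALB/cJ and C57BL6/J. The counts of all 6 libraries are joined in 1 table. Its barcode suffixes, 1 to 6, carry no key to the mice, so WT and Npc1-/- were left uncompared and every class below mixes both genotypes. Libraries are named by suffix. Values are given library by library for the main results and otherwise summed over the 6 libraries, and libraries were never averaged as replicates.

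In the brain, astrocytes are known to be joined to one another by homotypic channels of Cx43 and Cx30, and to oligodendrocytes by heterotypic channels, of which Cx30 with Cx32 is 1 kind. Oligodendrocytes carry Cx32 in the myelin sheath, whereas Cx29 lies on the inner layer of myelin and is not known to form gap junctions with other cells. Leptomeningeal fibroblasts, the cells of the membranes that cover the brain, also carry Cx43, Cx30 and Cx26.

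The table held 75878 barcodes, of which 75867 were kept, and 497750379 UMIs. Libraries held 8217 to 16118 barcodes with a median of 4469 to 5439 UMIs per nucleus, and 631 of 75245 barcode sequences occurred in at least 2 libraries. Clustering without any connexin gene gave 47 clusters, of which 25 were named in 15 classes from markers, each class called "-like". The other 22 clusters, with 34.4% of nuclei, stayed unnamed. Levels are in CPM, the UMIs of a gene per 1000000 UMIs of a class, and ratios are log2 ratios of 2 such levels. The intervals are 95% exact intervals, which cover counting error only and not variation between mice. A gene is said to be higher in a class where the interval of the ratio lies off 0.

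Free RNA, released when tissue is homogenized, is captured with every nucleus, so a UMI in a class does not by itself show expression there. The share of free RNA was read from tracers, genes of 1 cell type counted in the others. Mitochondrial UMIs, which a nucleus lacks, had a median share of 0.186% in library 2 down to 0.0380% in library 5 and 0.0204% in library 6.

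Gja1, the main connexin of astrocytes, lies on chromosome 10 at 56377330 to 56402513 (GRCm38, plus strand). Its level in astrocyte-like nuclei was 278, 259, 262, 242, 313 and 385 CPM in libraries 1 to 6, and 276 CPM (270.2 to 282) over all 8284 nuclei. Libraries 5 and 6 were the highest. In excitatory neuron-like nuclei the level was 15.1, 17.6, 21.0, 23.9, 13.1 and 11.7 CPM. There libraries 5 and 6 were the lowest, and no library of the neurons came near any library of the astrocyte-like nuclei.

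**Figure D1:**
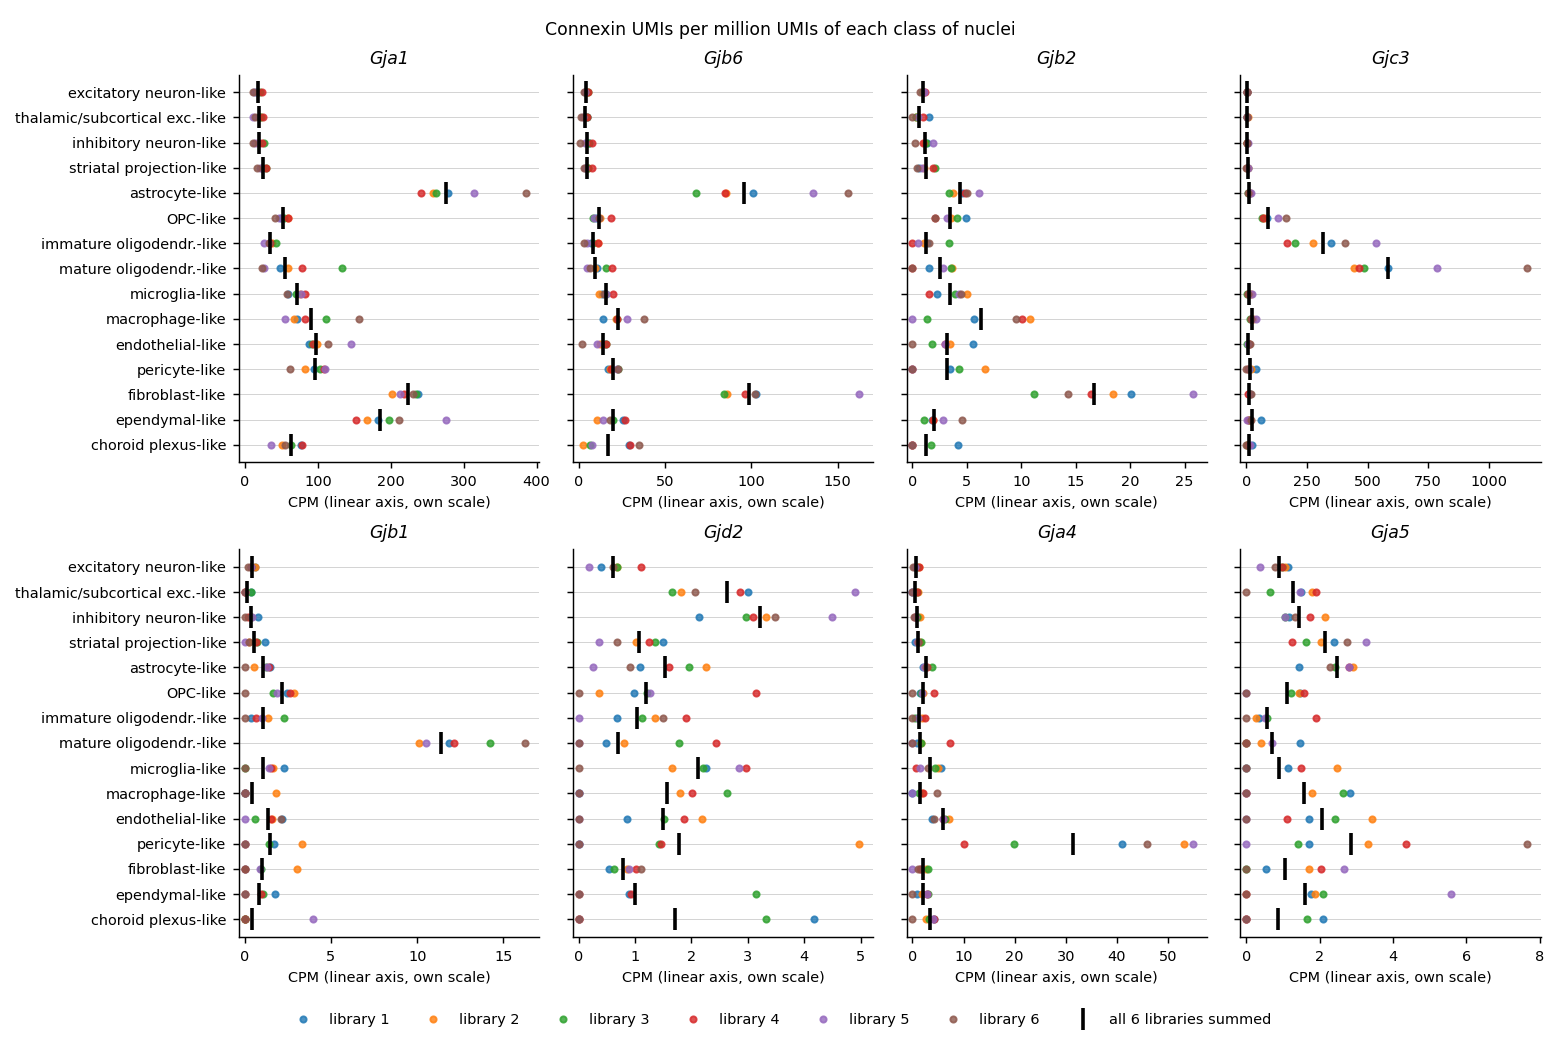
Level of each of the 8 connexins (CPM, linear axis with its own scale for each gene) in 15 classes of nuclei. Coloured points are the 6 libraries and black bars all libraries summed. Gja1 and Gjb6 stand out in astrocyte-like and fibroblast-like nuclei, Gja1 also in ependymal-like nuclei, and Gjb2 in fibroblast-like nuclei. Gjc3 stands out in the oligodendrocyte lineage, Gjb1 in mature oligodendrocyte-like nuclei only and Gja4 in pericyte-like nuclei. Gja5 has no class that stands apart in every library.

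The order of Gja1 levels was astrocyte-like, fibroblast-like, ependymal-like, and then endothelial-like nuclei. Fibroblast-like nuclei held 237, 202, 235, 218, 212 and 231 CPM. Ependymal-like nuclei held 182, 167, 198, 153, 276 and 211 CPM. Only library 5 had more Gja1 in ependymal-like than in fibroblast-like nuclei, and every library had most in astrocyte-like nuclei.

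The lead of astrocyte-like over ependymal-like nuclei was 0.58 (0.48 to 0.68) on the log2 scale, and that over fibroblast-like nuclei was 0.31 (0.24 to 0.37), positive in 6 of 6 libraries for both. Both leads turned to -0.13 when UMIs were taken per nucleus in place of CPM. The median nucleus had 3311 UMIs in the astrocyte-like class, 3784.5 in the fibroblast-like class and 4032 in the ependymal-like class. Without the nuclei of the highest 10% of doublet scores, the lead over fibroblast-like nuclei was 0.064 (-0.01 to 0.14). Against OPC-like nuclei (oligodendrocyte progenitors) the difference was far larger, 2.38 (2.27 to 2.50).

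Endothelial-like nuclei held 97.0 CPM of Gja1 and pericyte-like nuclei 96.4 CPM, which did not differ beyond counting error. To set these levels against free RNA, Gja1 was counted per 100 UMIs of 4 astrocyte transcripts, Aqp4, Slc39a12, Ntsr2 and Fgfr3. This ratio was 39.6 (37.7 to 41.5) in excitatory neuron-like, 43.0 in inhibitory neuron-like, 41.3 in microglia-like, 42.5 in OPC-like and 38.2 in pericyte-like nuclei. In astrocyte-like nuclei themselves it was 25.1 (24.5 to 25.7), below each of these. Astrocyte-like nuclei hold the tracers as their own transcripts, at 1098 CPM. Their ratios, here and for Gjb6 and Gjb2 below, therefore cannot be read against those of other classes. The other classes named lay close together although their Gja1 levels ran from 17.4 CPM in excitatory neuron-like to 96.4 CPM in pericyte-like nuclei. Choroid plexus-like nuclei lay apart, at 14.9 (12.5 to 17.7) with 428 CPM of the tracers, so the ratio was not constant over all classes.

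Endothelial-like nuclei had 75.9 (70.4 to 81.8) Gja1 UMIs per 100 tracer UMIs, from 66.0 to 211 over the libraries. Excitatory neuron-like libraries reached 44.1 and pericyte-like libraries 62.5, but 1 library of thalamic and subcortical excitatory neuron-like nuclei reached 87.5, within the endothelial range. Fibroblast-like nuclei had 79.6 (75.5 to 83.9), from 63.5 to 93.7 over the libraries. Summed over libraries, Gja1 in these 2 classes thus exceeded what came with astrocyte transcripts elsewhere. In OPC-like, microglia-like and pericyte-like nuclei it did not. Ependymal-like nuclei, at 36.8, cannot be read this way, since their tracer level of 503 CPM included Aqp4, which ependymal cells are known to express. Tracer levels were 280 CPM in fibroblast-like and 128 CPM in endothelial-like nuclei, against 43.9 CPM in excitatory neuron-like nuclei. Part of the Gja1 CPM in fibroblast-like and endothelial-like nuclei may thus be free RNA, and its share was not tested.

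**Figure D2:**
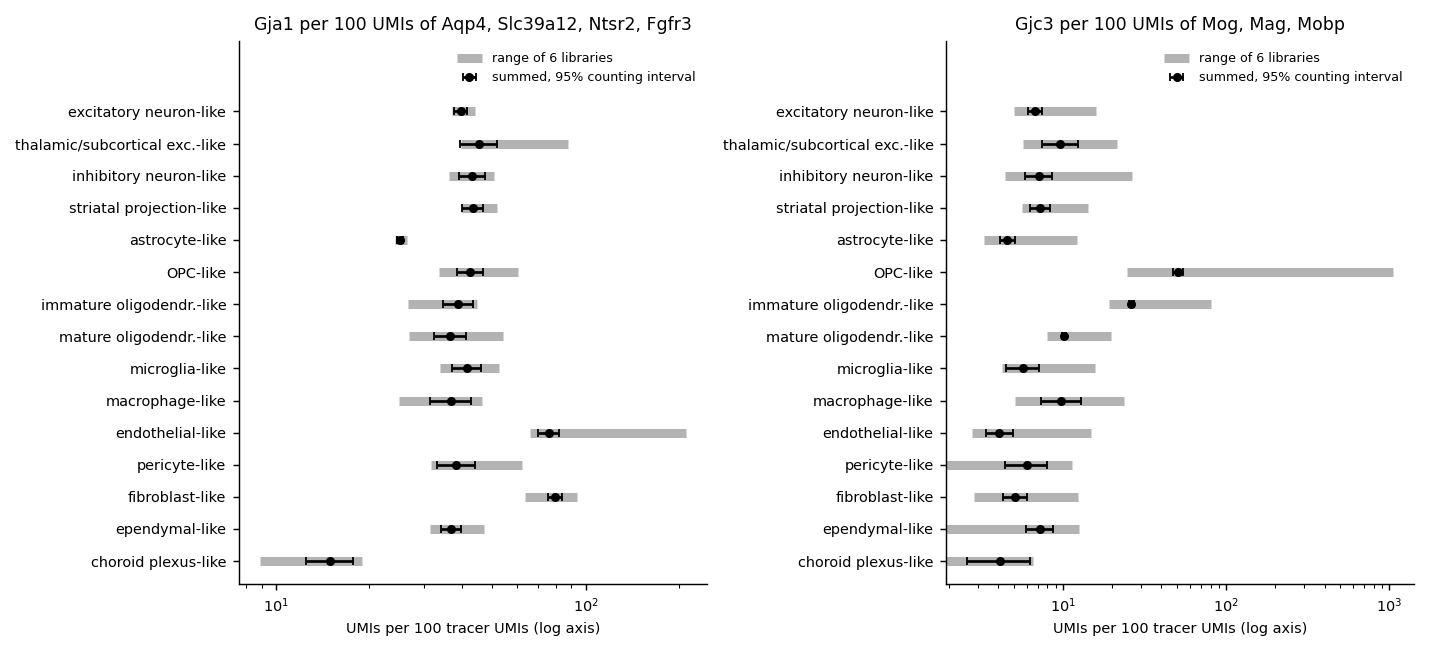
UMIs of Gja1 per 100 UMIs of 4 astrocyte transcripts (left) and of Gjc3 per 100 UMIs of 3 oligodendrocyte transcripts (right) in 15 classes, log axis. Points are all libraries summed with 95% counting intervals, and grey bars are the range of the 6 libraries, reaching the left edge where a library is at 0. The summed points of endothelial-like and fibroblast-like nuclei lie to the right of the other classes for Gja1, and those of OPC-like and immature oligodendrocyte-like nuclei for Gjc3.

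Gjb6 and Gjb2 are neighbours on the minus strand of chromosome 14, at 57123303 to 57133611 and 57098600 to 57104702 (GRCm38), 18.6 kb apart. Gjb6 in astrocyte-like nuclei was 101, 85.5, 67.9, 85.0, 136 and 156 CPM in libraries 1 to 6, with libraries 5 and 6 again the highest. In fibroblast-like nuclei it was 103, 85.7, 84.0, 96.4, 163 and 102 CPM. The classes overlapped, and the ratio of fibroblast-like over astrocyte-like nuclei was 0.04 (-0.06 to 0.14).

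Gjb6 separated astrocyte-like from ependymal-like nuclei more sharply than Gja1 did, by 2.25 (1.97 to 2.55) on the log2 scale against 0.58 for Gja1. Ependymal-like nuclei had 20.1 CPM of Gjb6, and macrophage-like and pericyte-like nuclei 22.7 and 19.6 CPM, and neighbours among these 3 did not differ beyond counting error. Per 100 astrocyte tracer UMIs, Gjb6 was 9.74 in excitatory neuron-like, 9.38 in OPC-like, 9.02 in microglia-like and 8.73 in astrocyte-like nuclei. Fibroblast-like nuclei had 35.3 (32.9 to 37.8), and their lowest library, at 28.1, lay above every library of the other classes, the highest of which was 17.6 in pericyte-like nuclei.

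Gjb2 was low in every class but 1. Fibroblast-like nuclei had 20.1, 18.4, 11.2, 16.4, 25.8 and 14.3 CPM, and astrocyte-like nuclei 4.51, 3.71, 3.31, 4.81, 6.14 and 5.03 CPM. The 2 classes did not overlap, and the ratio was 1.94 (1.62 to 2.27), positive in 6 of 6 libraries. Macrophage-like nuclei came second with 6.27 CPM from 16 UMIs, which did not differ from astrocyte-like nuclei beyond counting error. Per 100 astrocyte tracer UMIs, Gjb2 was 0.396 in astrocyte-like, 2.27 in excitatory neuron-like and 5.96 in fibroblast-like nuclei. With so low a ratio in the tracers' own class, these tracers give no sure background for Gjb2. The fibroblast-like interval, 5.12 to 6.90, lay above those of all other classes. Its libraries ran from 4.33 to 11.4 and overlapped single libraries of inhibitory neuron-like (up to 6.52), mature oligodendrocyte-like (5.71), macrophage-like (5.61) and endothelial-like nuclei (4.35).

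Both classes were made of 2 clusters, and the connexins were not even across them. Clusters were compared with their values in view, as a description. Of the astrocyte-like clusters, cluster 12 (led by Slc6a11, a GABA transporter) had less Gja1 than cluster 1 (led by Slc1a3, a glutamate transporter), 221 against 292 CPM. The ratio was -0.41 (-0.49 to -0.33), negative in 6 of 6 libraries.

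Gjb6 went the other way. Cluster 12 held 131, 96.4, 97.2, 108, 192 and 219.8 CPM, and cluster 1 held 91.7, 82.2, 59.3, 78.1, 121 and 137 CPM. Each library had more in cluster 12, and the ratio was 0.52 (0.40 to 0.63). Gja5 was also higher there, 4.11 against 1.98 CPM, but from 29 and 47 UMIs, and library 1 had none of it in cluster 12. The median nucleus had 3438.5 UMIs in cluster 12 and 3271 in cluster 1, and 2.29% and 3.37% of nuclei had a doublet score in the highest 10%.

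The fibroblast-like clusters differed as well. Cluster 14 (led by Slc6a20a and Bmp6) had 109 CPM of Gjb6 and 19.4 CPM of Gjb2, against 74.0 and 10.2 CPM in cluster 32 (led by Bnc2 and Slc47a1). Cluster 32 was the lower in 6 of 6 libraries for both genes, by -0.56 (-0.77 to -0.36) and -0.93 (-1.51 to -0.39). Gja1 was the reverse, with 201 CPM in cluster 14 and 275 CPM in cluster 32, a ratio of 0.45 (0.33 to 0.57). It was positive in 6 of 6 libraries but uneven, at 0.90 and 0.998 in libraries 3 and 5 and from 0.036 to 0.27 in the others. High doublet scores were frequent in both clusters, in 20.1% and 17.6% of nuclei, and the part of doublets in these differences was not tested. Without high-scoring nuclei, Gjb6 in the class was 124 CPM and Gjb2 21.9 CPM.

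**Figure D3:**
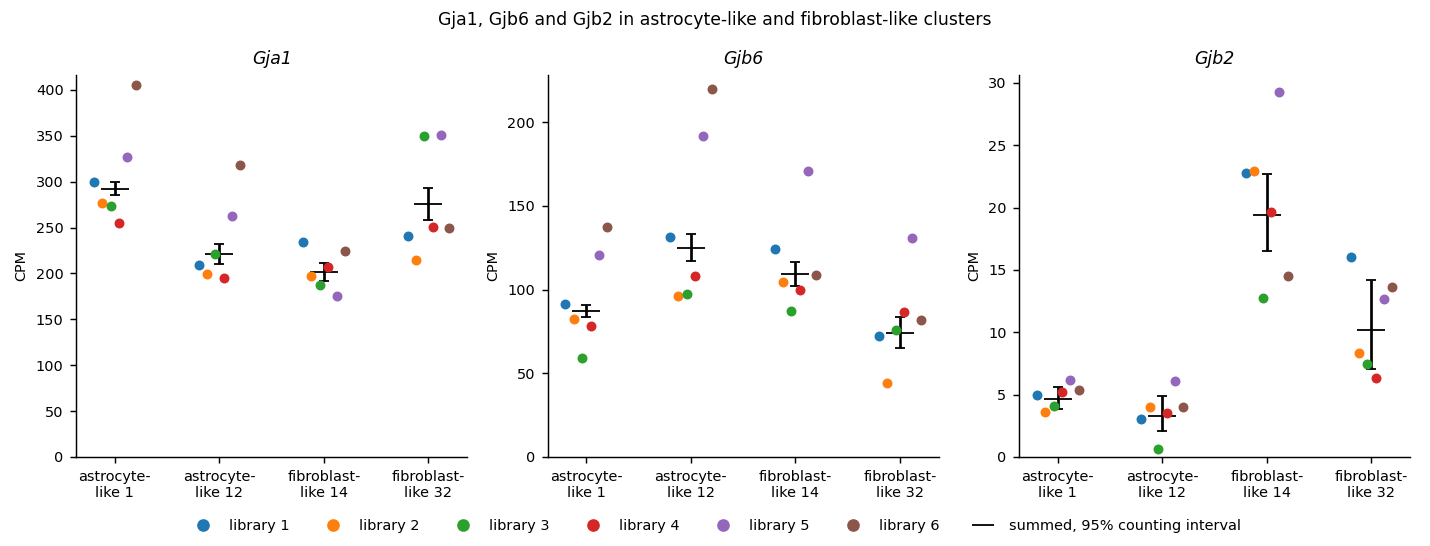
Level (CPM) of Gja1, Gjb6 and Gjb2 in 2 astrocyte-like and 2 fibroblast-like clusters. Coloured points are the 6 libraries, and black lines are all libraries summed with 95% counting intervals. Gja1 is lower and Gjb6 higher in cluster 12 than in cluster 1 in every library, and Gjb2 is highest in cluster 14.

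Gja1 and Gjb6 were seldom counted in the same nucleus. With each nucleus thinned to 2000 UMIs, Gja1 was counted in 38.7% of 7332 astrocyte-like nuclei (37.5 to 39.8), against 4.03% of excitatory neuron-like nuclei. Before thinning these shares were 54.1% and 15.01%, at median depths of 3311 and 8409 UMIs. Gjb6 was counted in 16.9% and both in 6.40% of the thinned astrocyte-like nuclei. Gjb6 was present in 16.5% (15.2 to 17.96) of nuclei with Gja1 and in 17.2% (16.1 to 18.3) of nuclei without it, so the 2 genes were met together about as often as their separate shares give. Library 3 was lower among nuclei with Gja1, at 9.08% (6.85 to 11.7) against 14.8% (12.6 to 17.2).

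Fibroblast-like against astrocyte-like nuclei was also read over the connexin family. Of all 18575 genes with at least 20 UMIs in the 2 classes, 11.5% were at least 2-fold higher and 6.57% at least 2-fold lower with an interval off 0. All 8 members could be compared, of which Gjb2 was higher and Gja5 lower (1.05 against 2.47 CPM, from 12 and 76 UMIs). Their median ratio was -0.21, against 0.10 over all genes compared. Of the 12 other connexins and 3 pannexins 2 each could be compared, and none passed. Among genes whose proteins are known to bind connexins or to share their membrane sites, Ccn3 was higher in fibroblast-like nuclei, at 42.1 against 16.6 CPM. Hepacam and Mlc1, which act together at astrocyte contacts, were lower, at 55.0 against 311 CPM and 28.7 against 70.5 CPM.

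Gjc3 and Gjb1 belong to the oligodendrocyte lineage. Gjc3 lies on chromosome 5 at 137953461 to 137963098 (minus strand) and Gjb1 on chromosome X at 101376378 to 101385629 (plus strand). The 250 bases before their start sites are shown because both genes were higher in mature than in progenitor nuclei. They are from RefSeq (GRCm38.p6), at chr5:137963099-137963348 on the minus strand for Gjc3, and at chrX:101383482-101383731 on the plus strand for the most downstream of 4 Gjb1 starts. Capitals mark ACAAAG or ACAATG on either strand, the core letters of SOX-family motifs.

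Gjc3: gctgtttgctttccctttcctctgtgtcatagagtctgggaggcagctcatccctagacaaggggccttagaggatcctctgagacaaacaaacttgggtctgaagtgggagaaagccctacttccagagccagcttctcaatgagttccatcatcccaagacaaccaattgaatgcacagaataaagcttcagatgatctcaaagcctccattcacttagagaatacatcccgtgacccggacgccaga

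Gjb1: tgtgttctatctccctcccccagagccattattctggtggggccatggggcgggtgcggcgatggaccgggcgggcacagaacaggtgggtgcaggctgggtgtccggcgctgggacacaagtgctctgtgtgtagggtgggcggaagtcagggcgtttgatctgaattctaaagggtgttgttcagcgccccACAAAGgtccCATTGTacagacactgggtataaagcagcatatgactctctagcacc

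The Gjb1 window held 2 such matches, which begin 57 and 47 bases before the start, and the Gjc3 window none. Of 32851 RefSeq promoter windows of the same length, 25.2% held at least 1 match. Of the other 3 Gjb1 starts 1 had a match, Gja5 had 1, and the windows of Gja1, Gjb6, Gjb2, Gja4 and Gjd2 had none. A match is a run of letters and not a shown binding site.

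In OPC-like nuclei Gjc3 was 84.3, 72.4, 67.0, 70.3, 131 and 165 CPM in libraries 1 to 6. In mature oligodendrocyte-like nuclei it was 586, 443, 486, 464, 786 and 1156 CPM. Every mature value lay above every progenitor value, and libraries 5 and 6 were the highest at both stages. The astrocyte-like level was 12.7 CPM, below OPC-like nuclei by 2.80 (2.63 to 2.97) on the log2 scale.

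The rise was stepwise. Immature oligodendrocyte-like nuclei were above OPC-like nuclei by 1.84 (1.74 to 1.94), and mature were above immature by 0.89 (0.82 to 0.95), positive in 6 of 6 libraries each. The second step was uneven across libraries, at 0.75, 0.68, 1.27, 1.47, 0.55 and 1.504 in libraries 1 to 6. The mix of clusters in these classes was uneven as well. Mature nuclei were 2.51, 2.502, 0.595, 0.574, 2.59 and 0.730% of the nuclei of libraries 1 to 6, and cluster 23, within the immature class, had 269, 287, 43, 34, 214 and 25 nuclei. The part of this mix in the step was not tested. The step also moved with the settings. It was 0.22 at cluster resolution 0.5, 0.25 with stricter filters on nuclei and 0.35 with clusters of many high doublet scores kept, and it turned to -0.11 when connexins were allowed in the clustering.

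The clusters were therefore also taken 1 by 1. These steps were chosen after the values were seen. Cluster 15 (led by Bcas1 and Enpp6, genes of the premyelinating stage) had 187 CPM of Gjc3, cluster 23 had 496 CPM and mature cluster 18 had 586 CPM. Cluster 23 scored almost as high for mature as for immature markers, 2.21 against 2.28. From OPC-like cluster 5 to cluster 15 the step was 1.08 (0.96 to 1.197), from 15 to 23 it was 1.41 (1.31 to 1.504), and from 23 to 18 it was 0.24 (0.17 to 0.31), all positive in 6 of 6 libraries.

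Gjb1 was higher at the last step. Mature oligodendrocyte-like nuclei had 11.8, 10.1, 14.2, 12.1, 10.5 and 16.3 CPM of Gjb1 from 82 UMIs. Cluster 23 had 0.594, 2.76, 3.64, 0, 0.866 and 0 CPM from 8 UMIs. The groups did not overlap, and the step from cluster 23 to 18 was 2.91 (1.87 to 4.17). Taken singly, 3 of 6 libraries had an interval off 0. Libraries 4 and 6, at 0 in cluster 23, had 34 and 25 nuclei there and 5 mature UMIs each. Over the classes, mature were above immature nuclei by 3.46 (2.61 to 4.43) and above OPC-like nuclei by 2.42 (1.75 to 3.12), positive in 6 of 6 libraries for both. The mature over immature ratio was 2.40 (1.37 to 3.65) with connexins allowed in the clustering, 2.59 with stricter filters on nuclei and 2.73 at cluster resolution 0.5, where the mature level of Gjb1 was 6.28 to 6.39 CPM.

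**Figure D4:**
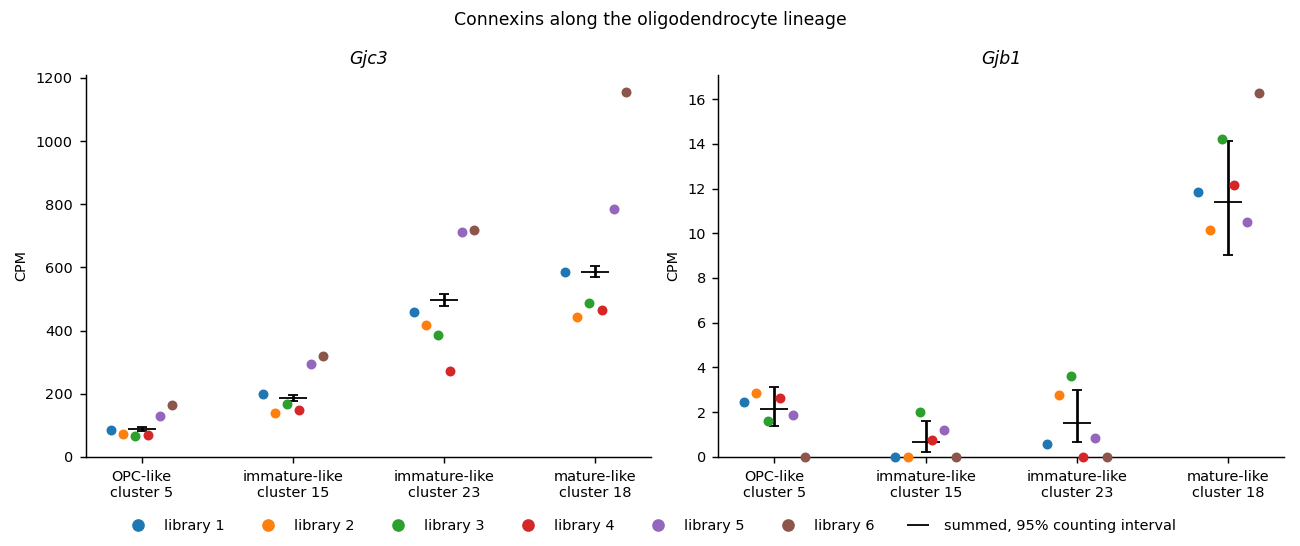
Level (CPM) of Gjc3 and Gjb1 in 4 clusters of the oligodendrocyte lineage, from OPC-like to mature. Coloured points are the 6 libraries, and black lines are all libraries summed with 95% counting intervals. Gjc3 is higher at each step, and Gjb1 stands above 10 CPM in cluster 18 only.

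Gjb1 in immature oligodendrocyte-like nuclei was 1.03 CPM from 13 UMIs, and in OPC-like nuclei 2.13 CPM from 25 UMIs. The ratio was -1.05 (-2.14 to -0.03), but it came within counting error of 0 under most alternatives, for example at -0.74 (-1.90 to 0.37) without library 1. Per 100 UMIs of the myelin transcripts Mog, Mag and Mobp, Gjb1 was 0.196 in mature, 0.816 in excitatory neuron-like and 1.22 in OPC-like nuclei. The ratio in mature nuclei cannot be read against the others, since the tracers are their own transcripts. In OPC-like nuclei Gjb1 did not exceed what came with oligodendrocyte transcripts in neurons beyond counting error, since its interval of 0.785 to 1.801 overlapped that of the neurons, 0.612 to 1.07. Microglia-like (0.207 to 1.07) and endothelial-like intervals (0.352 to 0.972) overlapped it too. Those of astrocyte-like (0.253 to 0.523), fibroblast-like (0.196 to 0.703) and ependymal-like nuclei (0.066 to 0.625) lay below it, so the reading depends on the class compared.

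Summed over libraries, Gjc3 lay above that background in OPC-like and immature nuclei. Per 100 UMIs of the same tracers it was 6.69 in excitatory neuron-like, 4.54 in astrocyte-like and 5.67 in microglia-like nuclei, against 50.5 (46.8 to 54.5) in OPC-like and 26.1 (25.2 to 27.0) in immature nuclei. Library by library, OPC-like nuclei ran from 24.4 to 1053 and immature nuclei from 19.1 to 80.7, against 5.01 to 15.97 in excitatory neuron-like nuclei. Single libraries of inhibitory neuron-like (up to 26.5), macrophage-like (23.5) and thalamic and subcortical excitatory neuron-like nuclei (21.4) overlapped the lowest of these. Mature nuclei, at 10.1, hold the tracers as their own transcripts, at 5813 CPM against 175 CPM in OPC-like nuclei, and cannot be read this way. At 2000 UMIs, Gjc3 was counted in 64.6% of mature, 38.5% of immature and 14.3% of OPC-like nuclei, against 2.13% of astrocyte-like nuclei. Before thinning the shares were 88.1%, 57.0%, 22.9% and 4.38%, at median depths of 5168, 4256.5, 3160 and 3311 UMIs.

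Between mature and OPC-like nuclei, 9.36% of 16156 genes compared were at least 2-fold higher and 17.3% at least 2-fold lower. Of the 8 members 6 could be compared, Gjc3 and Gjb1 were higher and none lower. Their median ratio was -0.11, against -0.27 over all genes compared. The pannexins Panx1 and Panx2, which form large-pore channels without joining cells, were both lower, at 4.44 against 17.1 CPM and 4.99 against 11.3 CPM. Among the connexin partners, the scaffold protein Tjp1 was higher by 1.36, and Cav1 was lower by -2.19.

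Gjd2 lies on chromosome 2 at 114009601 to 114013619 (minus strand). It overlaps A530058N18Rik on the opposite strand, and no source used here gives whether counting used strand, so its values may hold reads of that gene. It was scarce, with 662 UMIs in all nuclei. Inhibitory neuron-like nuclei had 2.13, 3.32, 2.97, 3.09, 4.49 and 3.47 CPM, and excitatory neuron-like nuclei 0.396, 0.680, 0.676, 1.10, 0.188 and 0.611 CPM. Each library of the inhibitory class lay above all libraries of the excitatory class.

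The ratio of inhibitory over excitatory neuron-like nuclei was 2.39 (1.95 to 2.83), and over striatal projection neuron-like nuclei it was 1.58 (1.04 to 2.14), positive in 6 of 6 libraries. The astrocyte transcript Gja1 was nearly even in inhibitory and excitatory neuron-like nuclei, at 18.98 and 17.4 CPM, with a ratio of 0.13 (-0.01 to 0.26). Gja1 follows RNA of astrocytes and does not bear on free RNA of Gjd2, whose part was not tested. Of 20795 genes compared between inhibitory and excitatory neuron-like nuclei, 8.45% were at least 2-fold higher and 5.5% at least 2-fold lower in the inhibitory class. Gjd2 was the 1 of 8 members that passed. The median of the members was 0.22, against 0.13 over all genes compared. Of 4 other connexins compared, Gja3 was lower, at 0.0656 against 0.272 CPM and 2 against 36 UMIs. None of the pannexins and connexin partners compared passed, among them Dbn1, a binder of actin with 112 CPM in excitatory neuron-like nuclei.

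Thalamic and subcortical excitatory neuron-like nuclei had 3.01, 1.81, 1.65, 2.86, 4.90 and 2.06 CPM of Gjd2. They did not differ from inhibitory neuron-like nuclei beyond counting error (0.29, -0.25 to 0.85), and lay above excitatory neuron-like nuclei by 2.102 (1.52 to 2.66). Inhibitory cluster 10 (led by Kcnmb2, Kcnc2 and Nxph1) had 3.16 CPM and inhibitory cluster 20 (led by Adarb2) had 3.37 CPM, with a ratio of 0.09 (-0.61 to 0.76). Unnamed cluster 2, of 5377 nuclei, was even across libraries, with 2.41, 2.38, 2.99, 2.08, 2.40 and 2.04 CPM.

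Levels of Gjd2 in glia and in an unnamed cluster limit this reading. Microglia-like nuclei had 2.11 CPM from 14 UMIs (1.16 to 3.55), which overlapped inhibitory and thalamic neuron-like nuclei and lay above excitatory neuron-like nuclei (0.486 to 0.761). Unnamed cluster 0, led by mitochondrial genes and scoring best for excitatory neuron markers, had 2.64 CPM. The astrocyte-like level, 1.52 CPM (1.12 to 2.03), lay below that of inhibitory neuron-like nuclei (2.61 to 3.91) and above that of excitatory neuron-like nuclei. At 2000 UMIs, Gjd2 was counted in 0.565% (0.341 to 0.882) of inhibitory neuron-like and in 0.341% (0.221 to 0.503) of astrocyte-like nuclei. These intervals overlapped, and that of excitatory neuron-like nuclei, 0.131% (0.0774 to 0.206), lay below both. The share in inhibitory neuron-like nuclei was therefore not separated from that in astrocytes, whereas the CPM was. Before thinning the shares were 2.79%, 0.567% and 0.571%, at median depths of 7526, 3311 and 8409 UMIs.

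Gja4 and Gja5 are connexins of vessels. Gja4 lies on chromosome 4 at 127311421 to 127314039 (minus strand) and overlaps no other gene. In pericyte-like nuclei it was 41.1, 53.1, 19.9, 10.2, 54.9 and 45.9 CPM, from 24, 32, 14, 7, 5 and 6 UMIs. In endothelial-like nuclei it was 3.83, 7.19, 6.38, 5.99, 5.99 and 4.22 CPM. Every pericyte library was above every endothelial library, although the pericyte values spread widely.

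The ratio of endothelial-like over pericyte-like nuclei was -2.41 (-2.87 to -1.95) for Gja4, negative in 6 of 6 libraries. Endothelial-like nuclei were above microglia-like nuclei, the next in order, by 0.77 (0.08 to 1.51). No class was named for smooth muscle, whose contractile cells surround arteries. Pericyte-like cluster 30 scored 3.65 for pericyte markers and, second, 2.60 for smooth muscle markers, so smooth muscle nuclei may be among it. Unnamed cluster 19 of 1096 nuclei had 38.5 CPM of Gja4 and did not differ from pericyte-like nuclei beyond counting error. That cluster scored best for smooth muscle markers, 4.72, and second for pericyte markers, 3.48, and its leading genes mixed Rgs5 and Atp13a5 of mural cells with Flt1 and Slco1a4 of endothelium.

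**Figure D5:**
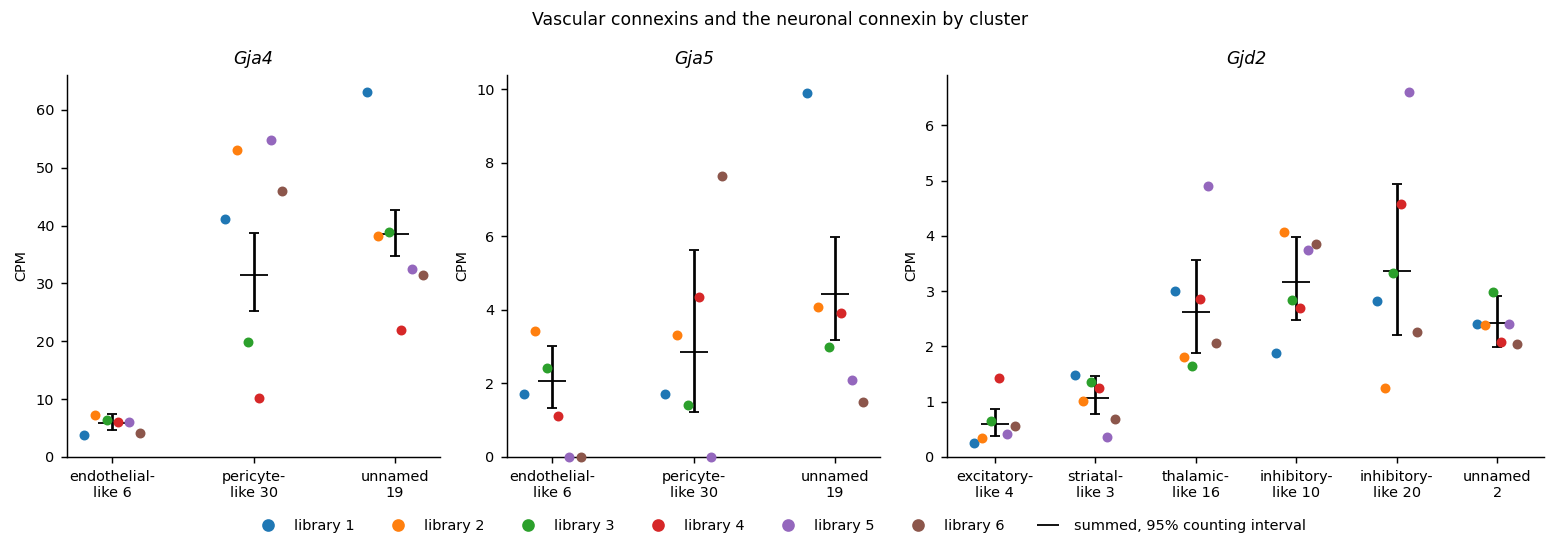
Level (CPM) of Gja4 and Gja5 in vascular clusters and of Gjd2 in neuronal clusters, with unnamed clusters 19 and 2. Coloured points are the 6 libraries, and black lines are all libraries summed with 95% counting intervals. Gja4 is above 10 CPM in each library of pericyte-like cluster 30 and below 8 CPM in each library of endothelial-like cluster 6, Gja5 overlaps between clusters, and Gjd2 is lowest in excitatory-like cluster 4.

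Gja5 lies on chromosome 3 at 96904693 to 97077416 (plus strand). It overlaps genes on the opposite strand, among them Gpr89, 9230114J08Rik and 4930573H18Rik, so its counts are uncertain in the same way as those of Gjd2. Pericyte-like nuclei had 2.86 CPM from 8 UMIs, astrocyte-like nuclei 2.47 CPM, striatal projection neuron-like nuclei 2.15 CPM and endothelial-like nuclei 2.05 CPM from 26 UMIs. None of these differed from its neighbour in the order beyond counting error, and endothelial-like over pericyte-like nuclei was -0.48 (-1.66 to 0.88). Astrocyte-like nuclei were above excitatory neuron-like nuclei by 1.45 (1.02 to 1.88), in 6 of 6 libraries. Gja4, Gjb1 and Gjd2 went the same way. They were at 2.69, 1.04 and 1.52 CPM in astrocyte-like nuclei and 0.786, 0.408 and 0.612 CPM in excitatory neuron-like nuclei. The median depths were 3311 and 8409 UMIs, and the part of depth or free RNA in these gaps was not tested.

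Endothelial-like nuclei were then divided by whether they held a UMI of 7 arterial genes, Bmx, Sema3g, Gkn3, Efnb2, Hey1, Mgp and Vegfc. Gja5 was 3.04 CPM from 20 UMIs in the 1391 nuclei with such a UMI and 0.989 CPM from 6 UMIs in the 1693 without, a ratio of 1.62 (0.25 to 3.22). It was positive in the 4 libraries with any Gja5 UMI in these nuclei, and libraries 5 and 6 had none. Gja4 was 6.98 and 4.78 CPM, a ratio of 0.55 (-0.15 to 1.27), and Gja1 was 97.2 and 96.8 CPM, 0.01 (-0.16 to 0.17). For 5 venous genes (Slc38a5, Nr2f2, Vwf, Lcn2 and Ackr1), Gja5 was 2.24 CPM in nuclei with a UMI and 1.88 CPM in nuclei without. Gja4 was 6.71 CPM (4.84 to 9.07) and 5.16 CPM (3.55 to 7.25), the same direction as in the arterial split. Nuclei with an arterial UMI were deeper, with a median of 3522 against 2970 UMIs, and the part of depth was not tested.

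Between pericyte-like and endothelial-like nuclei, 6.24% of 16111 genes compared were at least 2-fold higher and 7.29% at least 2-fold lower in the pericyte-like class. Among all 8 members Gja4 alone was higher and none lower, with a median of 0.36 against 0.01 over all genes compared. Gjc1 (Cx45), of the 2 other connexins compared, was higher by 1.39 (1.26 to 1.52), at 263 against 100.1 CPM. Neither of 2 pannexins compared passed. Among the connexin partners, Tjp1 and Cav1 were lower in pericyte-like nuclei. Tjp1 is a scaffold of tight junctions and Cav1 the main protein of caveolae, both of which endothelium is known for. Tjp1 was 457 against 1255 CPM and Cav1 13.9 against 57.7 CPM. The partners Cnst and Tjp3 were highest in choroid plexus-like nuclei, at 151 and 21.8 CPM.

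The genes most like each connexin were found by the correlation of log2(CPM + 1) over the 15 classes, among 16684 genes. These are descriptions over 15 points that share libraries and differ in depth. Gja1 was closest to Sardh, Aqp4, Mid1ip1, Ppp1r3c and Fmo1 (r = 0.964 to 0.960), and Gjb6 to Fmo1, Fzd2, Aldh1a1, Slc7a11 and C4b (0.967 to 0.956). Fmo1 was thus on both lists, and Aqp4, the astrocyte water channel, was the 1 marker gene of astrocytes among them.

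Gjb2 was closest to Ptgds, S100a10, Emp3, Fmod and Serpinf1 (0.947 to 0.927). Gjc3 was closest to Gm10863, Ugt8a, Plxnb3, Fa2h and Ninj2 (0.991 to 0.973), of which Ugt8a and Fa2h make the galactolipids of myelin. Gjb1 was closest to Ermn, Galnt5, Hapln2, Dync1li2 and Rcbtb1 (0.917 to 0.902), of which Ermn is known from late myelination and Hapln2 from nodes of Ranvier.

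Gja4 was closest to Cox4i2, Gper1, Kcnj8, Pelo and Sod3 (0.967 to 0.936), with Kcnj8 a channel of pericytes. The scarce genes had weaker matches. Gjd2 was closest to Haghl, Cplx1, Pnoc, Fgf13 and Gm38825 (0.855 to 0.810), and Gja5 to Vcl, Zcchc14, Fndc5, Mid2 and Rasgrp2 (0.819 to 0.766).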

How the data were processed

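Nuclei of flash-frozen forebrain were profiled with 10x Chromium 3' chemistry from 3 WT and 3 Npc1-/- mice aged 16 postnatal days. The authors deposited UMI counts as whole numbers for each gene and barcode, without normalization. The file header names cellranger 6.0.0, the submitters' processing notes Cell Ranger 2.1.1 and mm10, and the study's methods STARsolo with later filters and imputation, so the pipeline behind the table is uncertain. The methods state that multiplets were removed with DoubletFinder and nuclei above a mitochondrial threshold left out. The table still held 11 barcodes with a mitochondrial share of 10% or more, and whether it dates from before or after the multiplet step is not known. Whether reads were counted by strand was given by no source used here. No key from barcode suffix to mouse was found, so the genotypes stayed uncompared. The 8 genes, the marker lists and the gene lists were chosen with earlier results of these data known.

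Those 11 barcodes were left out. After scaling each nucleus to 10000 counts and taking logs, 3000 variable genes without connexins gave 30 principal components, a graph of 20 neighbours and Leiden clusters at resolution 1.0 (leidenalg 0.10.2, igraph 0.11.9, Python 3.11.15, numpy 2.4.6, scipy 1.17.1, scikit-learn 1.9.0). Doublet scores were computed per library against simulated doublets. No nucleus was removed for its score, but clusters with at least 40% of nuclei in the highest 10% of scores stayed unnamed. Names also needed at least 3 markers and 50% of a list detected, no mitochondrial, haemoglobin or ribosomal gene among the top 10, and no other class leading. These limits were set after the clusters were seen. Unnamed clusters comprised 11 rich in high doublet scores (6.31% of nuclei), cluster 0 led by mitochondrial genes (10.3%), 6 with under 50% of their markers enriched (13.0%), 3 led by markers of another class (3.99%) and 1 with markers of 2 classes (0.737%).

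Levels are summed UMIs of a gene over summed UMIs of a class. At 95%, levels have exact Poisson, shares exact Clopper-Pearson and ratios exact conditional binomial intervals. No p-value was computed. Genes of the family lists were called at a 2-fold ratio with an interval off 0, among genes with at least 20 UMIs in the 2 classes. The ratio code was tested on simulated counts. Genes were named by a fixed rule, namely the 8 members, the family and partner genes with at least 20 CPM in a class or past the 2-fold rule, and for each member the 5 genes of highest correlation. Further class pairs and all cluster pairs were chosen after values were seen. Coordinates are from GENCODE vM21 (GRCm38), and promoter windows from RefSeq (GRCm38.p6) for all 8 members. Some planned genes are not reported here, and the oligodendrocyte tracers were Mog, Mag and Mobp, a set chosen after seeing the data.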

Additional observations from a re-analysis of the deposited data

How the results depend on the processing

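Values here are log2 ratios unless stated. Of the 17 planned ratios, all 17 kept their direction with a mean of per-nucleus counts, for which no interval was computed. All 17 kept direction and side of 0 at cluster resolution 0.5, and 16 at resolution 2.0 and under stricter nucleus filters. Gja5 in endothelial-like over pericyte-like nuclei spanned 0 from the start, at -0.48 (-1.66 to 0.88), and had no side to lose. With UMIs per nucleus, Gja1 turned to -0.13 in astrocyte-like over ependymal-like and to -0.13 in astrocyte-like over fibroblast-like nuclei. With connexins allowed in clustering, Gjc3 in mature over immature oligodendrocyte-like nuclei turned to -0.11. The cause was not tested. Further ratios kept direction, and side where an interval was computed, but moved by over 1.5 times. With UMIs per nucleus, Gjb6 in astrocyte-like over ependymal-like nuclei was 1.55 and Gjc3 in immature over OPC-like nuclei 2.49, and with a median of libraries Gja4 in endothelial-like over pericyte-like nuclei was -3.04. The mature over immature oligodendrocyte-like ratios of Gjb1 and Gjc3 fell by over 1.5 times at resolution 0.5 and with stricter filters, as given above. That of Gjb1 did so with connexins allowed in clustering too. Gja1 in astrocyte-like over fibroblast-like nuclei came within counting error of 0 without the highest 10% of doublet scores (0.064) and, an alternative chosen after seeing the data, with clusters of many high doublet scores kept in their best class (0.047). Gjb1 in immature oligodendrocyte-like over OPC-like nuclei did so with UMIs per nucleus (-0.40), stricter filters (-0.97), resolution 2.0 (-1.18), connexins in clustering (-0.81), without high doublet scores (-0.93) and with doublet-rich clusters kept (-0.61), and it ran from -1.45 to -0.74 with 1 library left out, losing its side without library 1, 2, 4 or 5. The other 16 ratios kept direction and side with each library left out. A median of 6 libraries could not be had for that ratio or for Gja5 in endothelial-like over pericyte-like nuclei, where libraries were at 0. No paired analysis was possible because the libraries carry no key to the numbered mice. Depth limits Gjd2, Gjb1 and Gja5 most, with 662, 422 and 662 UMIs in all nuclei.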
